A study of Mus musculus with 2 samples.

Results

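Camta1 encodes a calmodulin-binding transcription activator, a large nuclear protein with a CG-1 DNA-binding domain, ankyrin repeats and IQ motifs through which calmodulin, the calcium sensor, can attach. The gene is expressed strongly in the brain and is spread over a very long stretch of mouse chromosome 4. It was chosen by its number of listed peaks inside the gene body in these same data, so its peak count and density are given as a description, with no test. Of the 8226 peaks in the deposited table, 11 carry the gene name Camta1.

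The peaks come from DamID, in which a bacterial adenine methyltransferase, Dam, is fused to a protein of interest and writes methyl groups on nearby GATC sequences. The fusion partner here was Dnmt1, which copies CpG methylation onto newly made DNA strands. In cleavage-stage embryos most of the genome loses methylation, while imprinted regions and part of the retroelements keep it. The zygotes came from BCF1 (C57BL/6 x CBA/CA) females, the strain of the males is not named, and embryos were taken at the 4- to 8-cell stage. The Dnmt1-Dam group received a Dnmt1-V5-Dam construct and the Dam-only group Dam without Dnmt1, with 50 embryos pooled for each. Each group is 1 library, so nothing below has a replicate error, and the 95% intervals cover counting error only. They count close neighbors as if independent.

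For each peak the file gives a position and a height in each library, and the reads behind a height are not known. The smallest Dnmt1-Dam height in the whole file is 7, the smallest Dam-only height is 1, and each listed peak lies at least 6 above its Dam-only height. The list thus holds positions already selected on a higher Dnmt1-Dam height, and every Camta1 peak shares that selection.

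In the deposited table Camta1 (NM_001081557) spans mm9 chromosome 4 from 150433635 to 151235855 on the minus strand, a length of 802 kb. The start of transcription is therefore the high coordinate, and distances below run from it into the gene. Of the 11 peaks, 10 lay inside the body and 1 upstream of it, and none fell in a promoter class. The class gene body does not separate exons from introns, and an mm9 annotation was not used here, so the exon or intron at each peak is not given.

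The listed peak nearest to the start site lay 4.63 kb inside the gene. The promoter is shown because it holds a sequence that Dam can methylate. These are the 250 bases before the RefSeq start site, in build GRCm38.p6 at chr4:151861769-151862018 on the minus strand, with GATC in capitals.
Camta1 promoter: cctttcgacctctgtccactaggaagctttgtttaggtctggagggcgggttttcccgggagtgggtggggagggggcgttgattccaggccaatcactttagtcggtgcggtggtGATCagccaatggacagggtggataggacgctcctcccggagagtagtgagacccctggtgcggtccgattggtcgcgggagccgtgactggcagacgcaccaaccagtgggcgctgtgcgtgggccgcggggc
GATC reads the same on both strands and occurred 1 time, beginning 134 bases before the start site. Of 32851 RefSeq promoter windows of the same length, 41.9% hold a GATC. The window has 18 CpG dinucleotides, the sites that Dnmt1 methylates, against a median of 6 (interquartile range 2 to 16) over those windows. The deposited peaks are in another build, so sequence at the peaks themselves was not analysed here. GATC outside this window was not examined either, so nothing about Dnmt1 at the promoter follows from the lack of a peak there.

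The 2 highest Camta1 peaks lay in the part of the gene nearest to its start. The first, at position 151154361 and 81.5 kb into the gene, had a Dnmt1-Dam height of 21 against 4 for Dam-only, with no repeat named. The second, at 151090201 and 146 kb in, had a height of 18 against 1 and lay in a simple repeat, a short tandem motif. These were the only Camta1 peaks of height 15 or more, 2 of 11 (18.2%, 2.28 to 51.8), where 8.66% of all peaks reach that height.

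Another 3 peaks marked this end. At 151231221, 4.63 kb inside the gene, the height was 7 against 1, the lowest height that the file lists. At 151266991, 31.1 kb upstream of the start and classed as intergenic, it was again 7 against 1. Neither of these had a repeat named. The last stood beside the peak of height 18: only 90 bp away, at 151090111, the height was 9 against 3, also in simple repeat sequence. Between the peak of 18 and this one the libraries differed in opposite directions, so the height ratio was 18.0 at the former and 3 at the latter.

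No Camta1 peak was listed over the next 325 kb, the longest gap, which runs from 18.2% to 58.7% of the way along the gene. For scale, the whole gene would hold 2.66 peaks at the pooled density of other genes of 500 kb or longer. How usual a gap of this length is was not tested. By equal parts of the body, 4 peaks fell in the part nearest the start, 2 in the middle part and 4 in the part nearest the end.

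Beyond the gap, the heights ran from 7 to 11. A pair 110 bp apart stood 471 kb into the gene. Its member at 150765331 had a height of 10 against 1 and lay in a DNA transposon, an element class that moves without an RNA copy. The other, at 150765221, had 11 against 3 and no repeat named. These neighbors were close in Dnmt1-Dam height but not in Dam-only height.

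A peak with no repeat named followed at 150666401, 569 kb in, with 11 against 2. Another pair 110 bp apart, at 150559571 and 150559461, lay 676 kb in and had 7 against 1 at both positions, each in a DNA transposon. The peak nearest to the end of the gene, at 150506241 and 730 kb in, had 10 against 1 and no repeat named. The peaks past the gap thus spanned a narrower range of heights than those before it, and none reached the heights of 18 and 21 seen near the start.

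**Figure D1:**
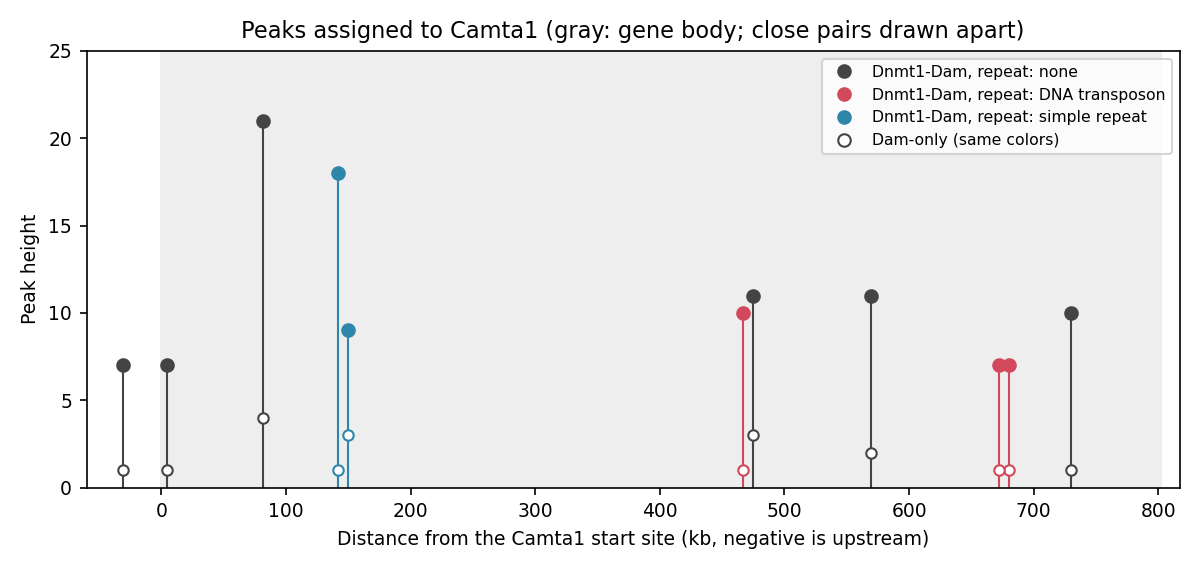
Peak height (vertical axis) against distance from the Camta1 start site in kb (horizontal axis), with filled symbols for Dnmt1-Dam and open symbols for Dam-only, colored by the repeat named at the peak. The members of each close pair are drawn apart to be visible. The 2 highest peaks, of 21 and 18, lie within 146 kb of the start, and peaks of 7 to 9 lie on that side too. Past a gap of 325 kb the heights are 7 to 11.

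Over all 11 peaks the Dnmt1-Dam height had a median of 10 (range 7 to 21), and over the whole file the median was 9 (interquartile range 7 to 11). The Dam-only height ranged from 1 to 4 and was 1 at 7 of the 11 peaks (63.6%, 30.8 to 89.1), against 75.8% of all peaks. The median ratio of the heights was 7 at Camta1 and 8 over all peaks. With each library scaled to its sum over the peaks and a pseudocount of 1, the median log2 ratio was 0.04 at Camta1 and 0.20 over all peaks, where 0 is the ratio of the library sums. Among the 7 Camta1 peaks of height 9 or more it was -0.26, so its sign is not fixed. These medians lay close to those of the whole file, and the spread among the Camta1 peaks was wider than the differences.

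The repeats named at Camta1 were of classes seldom named in this file. No Camta1 peak named a SINE, LINE or LTR element, the retroelements that move through an RNA copy. A count of 0 of 11 allows a share of up to 27.3% by the limit of 3 counts, or 28.5% by the exact binomial interval. Retroelements were named at 29.5% (25.2 to 34.1) of the 420 peaks inside other genes of 500 kb or longer and at 35.0% of all peaks. Inside the Camta1 body alone the count was 0 of 10, whose exact upper limit of 30.8% includes the share of 29.5%. With 1 peak kept for each run of neighbors spaced by up to 1 kb, the count was 0 of 8, whose exact upper limit of 36.9% includes both shares. At this number of peaks a lower retroelement share at Camta1 was thus not detectable once close neighbors are counted together. Of 29 other long genes with 5 or more body peaks, 4 likewise had no peak in a retroelement, namely Car10, Ptprd, Odz2 and Kcnma1.

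DNA transposons were named at 3 of the 11 peaks (27.3%, 6.02 to 61.0) and simple repeats at 2 (18.2%, 2.28 to 51.8). Of the 10 Camta1 peaks inside the body, these shares were 30.0% (6.67 to 65.2) and 20.0% (2.52 to 55.6). In the bodies of the other long genes they were 1.19% (0.388 to 2.76) and 1.90% (0.826 to 3.72). None of the 29 other long genes with 5 or more body peaks had 2 or more in DNA transposons. Of the Camta1 peaks in a named repeat, all 5 belonged to a close pair. With the highest peak kept in each 1 kb run, the upstream peak included, a DNA transposon was named at 1 of 8 (12.5%, 0.316 to 52.7). This interval overlaps that of the other long genes (1.27%, 0.414 to 2.94). However, this rule dropped the DNA transposon peak at 150765331, of height 10, for its neighbor of height 11 with no repeat named. The share by run and the overlap therefore rest on which peak of that pair is kept. No repeat was named at 6 of the 11 peaks (54.5%, 23.4 to 83.3), against 60.5% of all peaks. No Camta1 peak lay in a CpG island, shore or shelf, where 6.61% of all peaks and 1.19% of those in other long genes lay.

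**Figure D2:**
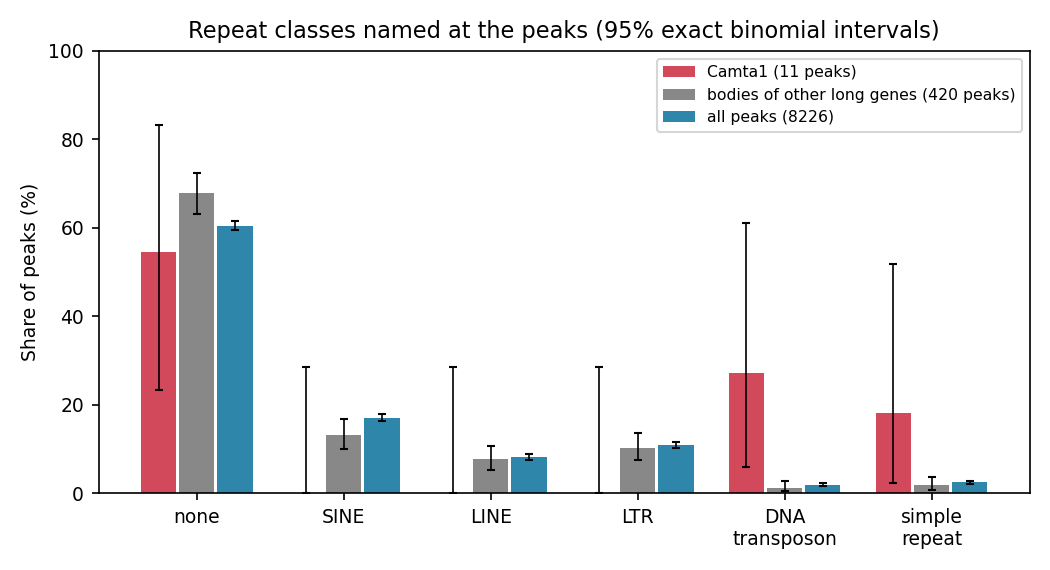
Share of peaks in percent (vertical axis) at which each repeat class is named, with bars for exact 95% binomial intervals. The sets are Camta1 (11 peaks, the upstream one included), the bodies of other genes of 500 kb or longer, and all peaks. Camta1 has no SINE, LINE or LTR peak and 27.3% in DNA transposons, with intervals far wider than those of the larger sets.

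Genes of 500 kb or longer were then compared by the number of peaks inside the body per Mb. The file holds 154 such genes with at least 1 assigned peak. A gene without any assigned peak is absent from it, so long genes with no peak could not enter. Camta1 held 10 peaks in 0.802 Mb, or 12.5 per Mb (5.98 to 22.9). The 153 others held 420 in 126 Mb, or 3.32 per Mb pooled (3.01 to 3.66), with a median of 3.08 (interquartile range 1.81 to 4.55), and 11 of them had no peak inside. Camta1 had the highest density of the 154, at 3.75 times the pooled value (1.79 to 6.97). At the pooled density its length would hold 2.66 peaks. Its count of 10 was also the highest, next to 9 in Accn1, an acid-sensing ion channel gene now named Asic2.

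The genes most like Camta1 in density over these 154 were Ptprm, St6galnac3 and Car10. Ptprm, a receptor-type tyrosine phosphatase gene, had 8 body peaks or 11.6 per Mb (5.03 to 23.0). St6galnac3, a sialyltransferase gene, had 6 or 11.5 (4.21 to 25). Car10, which encodes a carbonic anhydrase-related protein, had 5 or 9.96 (3.23 to 23.2). Ptprd, another receptor phosphatase gene, came next with 6 or 9.19 (3.37 to 20.0). Each of these intervals largely overlaps that of Camta1, so the order among the 5 is within counting error. The densities of all genes down to rank 25, at 6.30 per Mb, also lay inside the Camta1 interval.

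Genes of nearly the same length held fewer peaks, as did every other long gene, since Camta1 had the highest count. Their values are thus given for scale and not as a test. Magi2, a synaptic scaffold gene of 795 kb, had 3 body peaks or 3.77 per Mb (0.778 to 11). Ptprn2, a secretory granule protein gene of 791 kb, had 2 or 2.53 (0.306 to 9.13). Pcdh15, a protocadherin gene of 813 kb, had 1 or 1.23 (0.0311 to 6.85). Lrrtm4, a gene of 791 kb for a leucine-rich synaptic protein, had 0, and its only listed peak lay outside the body. All 4 lay below Camta1, with intervals that overlap its own except for Lrrtm4, whose upper limit was 4.66. At the limit of 500 kb, Kcnip4 (500.1 kb) and Edil3 (502 kb) were the shortest genes taken, with 1 body peak each. Ank3 (494 kb) and Abca13 (492 kb) lay just under it, with 0 and 2.

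**Figure D3:**
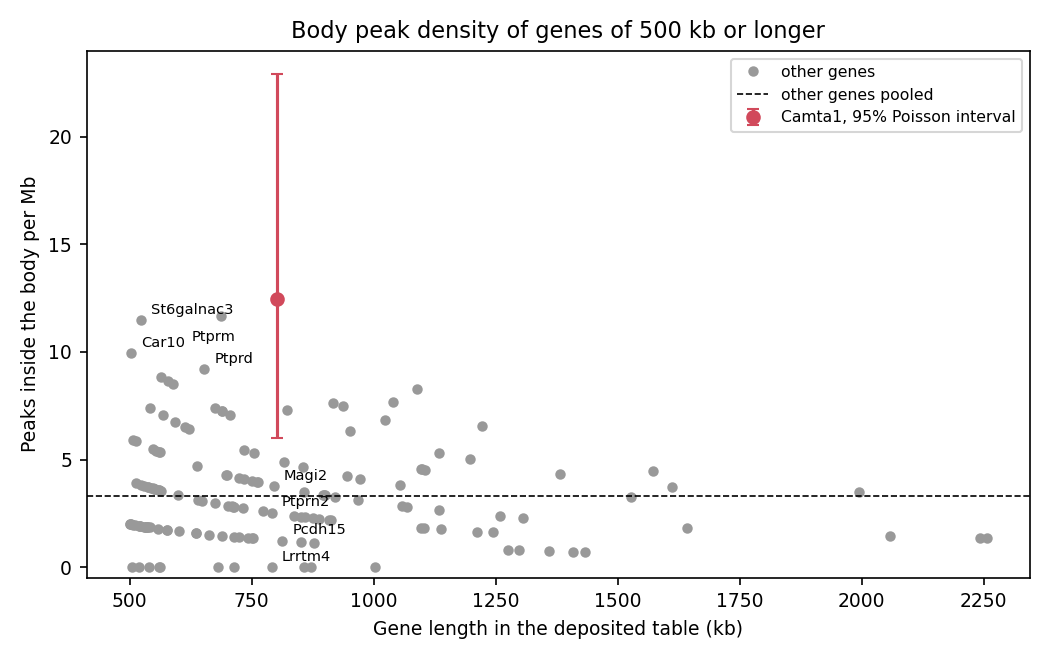
Body peaks per Mb (vertical axis) against gene length in kb (horizontal axis) for the 154 genes of 500 kb or longer that have a listed peak. The bar is the 95% Poisson interval of Camta1 (5.98 to 22.9) and the dashed line the pooled density of the others (3.32). The genes of ranks 2 to 25 in density, from 11.6 down to 6.30 per Mb, all lie within the Camta1 interval.

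Close pairs made up much of the Camta1 count. Of its 10 body peaks, 6 lay within 200 bp of another listed peak (60.0%, 26.2 to 87.8), against 49 of 420 (11.7%, 8.76 to 15.1) in the other long genes and 10.6% of all peaks. The 3 pairs were 90, 110 and 110 bp apart, less than the fragments of around 300 bp selected for sequencing. None of the 29 other long genes with 5 or more body peaks had as many as 6 such peaks, though those with only 5 could not. Each close pair also raises the body count by which Camta1 was chosen. These shares are therefore a description and not a test. Ptprm had 4, and Car10 and Clstn2 had 3 of 5 each, the same share as Camta1 (Clstn2 was picked out after its values were seen).

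Counted by such runs of up to 1 kb, Camta1 had 7 in its body, or 8.73 per Mb (3.51 to 18.0). It then had rank 4, after St6galnac3 (9.57), Tmem28 (8.85; now named Fam155a) and Ptprm (8.74). Its ratio to the pooled runs of the others (3.11 per Mb) was 2.81 (1.12 to 5.84). Higher peaks gave another order. Among peaks of height 9 or more, Ptprm led and Camta1 had rank 2, both at 8.7 per Mb to 1 decimal. Among peaks of height 15 or more Camta1 had rank 4 with its 2 peaks, and among peaks at a Dam-only height of 1 it had rank 5 with 6. With the length limit lowered to 300 kb, Camta1 had rank 7 of 379 genes, led by the zinc transporter gene Slc39a11 at 18.7 per Mb. The place at the head of the list thus depended on how neighbors and low peaks were counted and on the length limit. A density above the pooled one follows from how the gene was chosen.

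**Figure D4:**
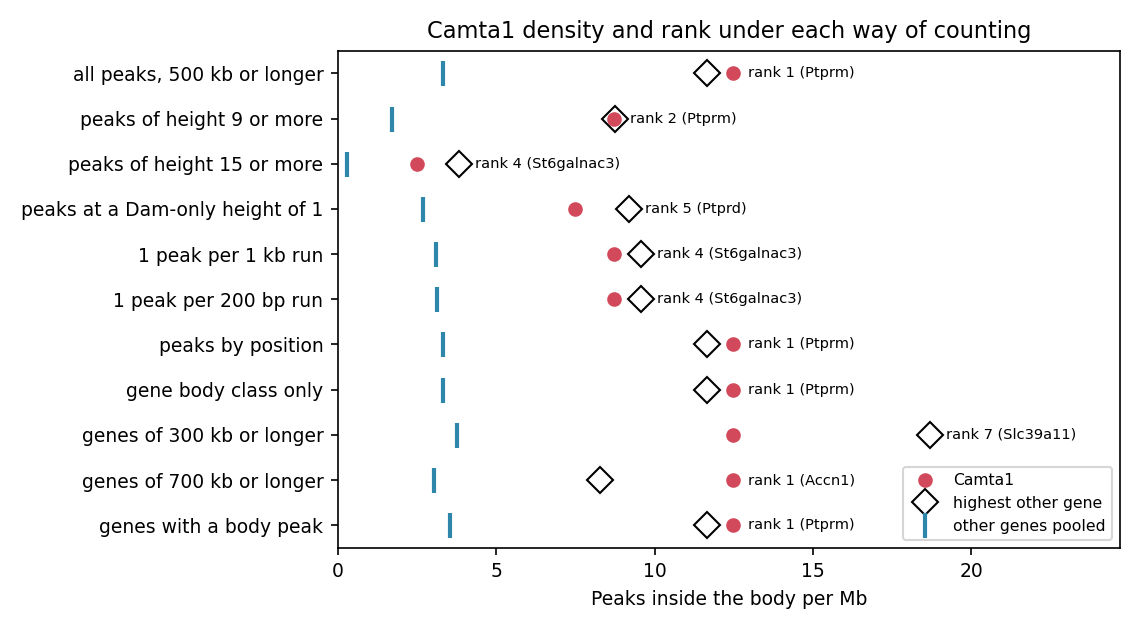
Body peaks per Mb (horizontal axis) for Camta1, the highest other gene and the other genes pooled, under each way of counting (vertical axis), with the rank of Camta1 and the name of that other gene. Camta1 has rank 1 in 4 of the 10 alternatives and ranks 2 to 7 in the rest. Of these 4, the limit of 700 kb and the restriction to genes with a body peak only remove other genes. Rank 1 was thus fixed in advance for both. Counting by position or by class left the Camta1 count at 10 and hardly changed the pooled density.

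The DNA on either side of Camta1 carried lower peaks. Within 1 Mb beyond the end of the gene lay 5 peaks (1.62 to 11.7 per Mb), the nearest assigned to Tnfrsf9, a cytokine receptor gene, at 150303741 with 7 against 1. Within 1 Mb beyond the start lay 6 (2.20 to 13.1 per Mb), the upstream Camta1 peak among them. The next of these, at 151346041, was assigned to the cochaperone gene Dnajc11 and had 9 against 2. These intervals overlap that of the Camta1 body, and chromosome 4 as a whole had 3.25 per Mb (2.97 to 3.55). No flanking peak was higher than 9. SINEs were named at 4 of the 11 flanking peaks, those at Rere, Tnfrsf9, Dnajc11 and Gm833. Inside the Camta1 body the count was 0 of 10, with intervals that overlap (10.9 to 69.2% against 0 to 30.8%).

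Camta1 acts beside other calcium and calmodulin genes, and 28 of these were looked up. Of them 13 had an assigned peak (46.4%, 27.5 to 66.1), where 22.6% of the 21035 genes with a curated messenger RNA had one. For peaks inside the body the count was 9 (32.1%, 15.9 to 52.4) against 11.6%. The list was not matched on gene length, so nothing particular to it follows. Camta2, the paralog of Camta1, had no listed peak.

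Among the kinases that calmodulin switches on, Camk1d had 3 peaks (9 against 3 at 2 of them and 7 against 1), and 2 of them lay inside the gene. Camk2b (8 against 1), Camk2d (7 against 1) and Camkk1 (7 against 1) had 1 inside the body each. Camk2g had a peak of 12 against 1 in its distal promoter, and the peaks of Camk1g and Camk4, both 7 against 1 in LTR sequence, lay outside the genes. The kinases thus stayed at low heights apart from Camk2g.

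For calcineurin, the calmodulin-dependent phosphatase, the catalytic subunit gene Ppp3ca had the highest peak of the list, 16 against 1 inside the body. Its nuclear targets Nfatc1 and Nfatc2 had 7 against 1 and 13 against 1, both inside. Creb1, an activator downstream of calcium signals, had 9 against 2 in LTR sequence outside the gene, and its coactivator gene Crtc3 had 7 against 1 inside. Hdac4, a histone deacetylase gene controlled by these kinases, had 5 peaks of 7 to 9, each against 1. Of these, 2 lay in the proximal promoter and 3 within 1 kb of each other near the end of the gene. The 13 genes with a peak held 12 inside 2.0 Mb of body, or 5.99 per Mb (3.09 to 10.5). The bodies of the 15 members without a listed peak were left out, which raises this density. It therefore gives no comparison with Camta1, itself chosen by its count. Retroelements were named at 6 of the 19 peaks of the 13 genes (31.6%).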

How the data were processed

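Peaks were profiled by DamID in 2 libraries, Dnmt1-Dam and Dam-only. The submitters' processing notes name CASAVA, BWA and build mm9. The deposited heights are signal values in whole numbers. Not given in the sources used here: whether they are raw or scaled, the peak caller, its thresholds, the treatment of duplicates and the depth. No count model was therefore used. Members were the rows named Camta1. Members and gene lists were chosen with earlier results of these data known. A gene's body ran from its start to its end in the deposited table, taking its longest span, and 443 of 473 unnamed peaks were named by accession from a RefSeq table of GRCm38.p6. Intervals are exact: Poisson for densities, Clopper-Pearson for shares, conditional binomial for ratios, at 95%. Beside Camta1, the genes named by rule were the 5 densest long genes, the 3 nearest in density, the 4 nearest in length, the nearest neighbors within 1 Mb and the calcium list members with a peak. Further genes were named from the results, for their count, rank, repeats or close peaks. Others were named for lying next to the length limit. Counting was tested on simulated data. Python 3.11.15, pandas 2.3.3 and SciPy 1.17.1 were used. Alternatives were height limits, merged runs, other length limits, counting by position or by class, scaling and pseudocounts. Sequence at the peaks was left out, as no mm9 genome was used here. Members of the calcium list without a peak were counted and, apart from Camta2, are not reported by name here.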

Additional observations from a re-analysis of the deposited data

How the results depend on the processing

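Of 58 recalculated values of 10 results, 45 stayed within the interval or spread of the reported value and 13 moved. The rank of Camta1 became 2 with peaks of height 9 or more, 4 with height 15 or more, 5 at a Dam-only height of 1, 4 with 1 peak per 1 kb run, 4 with 1 peak per 200 bp run and 7 among genes of 300 kb or longer. The pooled density of the other genes became 1.72, 0.269 and 2.69 per Mb under the 3 height limits in that order, since fewer peaks were counted, and 3.75 per Mb from 300 kb. With height 15 or more, the Camta1 density became 2.49 per Mb and its ratio to the pooled value 9.27, from 2 peaks. Without scaling, the median log2 ratio was 2. The 200 bp runs and the retroelement and DNA transposon shares by run were chosen after seeing the data. No paired analysis was possible because each group is 1 library. The depth behind the heights is unknown, and the number of Camta1 peaks limits every share.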

Other observations

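Windows of the length of Camta1, tiled over the autosomes after the data had been seen, do not depend on which genes have a listed peak. Of 3066 windows, 14 (0.457%) held 10 or more peaks, the number in the Camta1 body, and 2 of these were among the 193 windows of chromosome 4. Camta1 was chosen by that number, and its span follows the gene rather than a tile. The share is therefore a description and not a test. The median window held 2 peaks (interquartile range 1 to 4) and the fullest 15. With 1 peak kept per 1 kb run, 105 windows (3.42%) held 7 or more, the number of runs in the Camta1 body. Counted by runs, regions as full as Camta1 were thus more frequent than when counted by peaks.

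Close pairs over the whole file, those of Camta1 included, had a similar spacing, within the limit of 200 bp that defines them. The 448 pairs of neighbors within 200 bp had a median distance of 110 bp (interquartile range 90 to 130). The higher height was a median of 1.20 times the lower (interquartile range 1.09 to 1.38), and it was at least 2 times the lower in 21 pairs (4.69%). The simple repeat pair of Camta1, with 18 and 9, was among those 21. Both neighbors named a DNA transposon in 6 of the 448 pairs, of which the Camta1 pair with 7 at both positions was 1.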
